A study of Mus musculus with 30 samples.

Results

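Sprr1a and Ecel1 are a pair of injury genes that were followed here in retinal ganglion cells (RGCs), whose axons make up the optic nerve. They were taken by name, 2 of the 13752 genes in the RNA count table, together with every open-chromatin peak whose annotated gene was either one, which gave 0 peaks for Sprr1a and 6 for Ecel1 among 151630. The study asked how gene expression and chromatin of RGCs change after the nerve is crushed. The cells, from mice labelled C57BL/6, were isolated by papain digestion of retina and fluorescence sorting. Day 0 replicates 2 and 3 of the RNA set carry the strain labels C57BL/7 and C57BL/8, and no other genotype, age or agent is labelled. In the authors' comparisons and footprints the groups are named NT or nonTarget, a name that is not explained here. RNA-seq libraries came from mice without crush, called day 0 (3 libraries), and from days 1 (3), 2 (2), 3 (3) and 4 (2) of injury. Open chromatin was mapped by transposase cutting (ATAC-seq) on days 0 (6 libraries), 1 (3) and 3 (6). The labels do not say whether the replicates were separate animals, so p-values measure the spread between these libraries, which may be technical. Day 0 RNA replicate 3 stood apart from its companions, and the fits of Sprr1a and Ecel1 against day 0 are given with and without it. So are the day 3 changes of the epidermal genes named and the largest rises and the falls among the regeneration genes. Other fitted values use all RNA libraries unless stated.

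Sprr1a encodes small proline-rich protein 1A, a building block of the cornified envelope that toughens squamous epithelium. In sensory neurons it is a classic marker of axon injury, switched on when a peripheral nerve is cut. Ecel1 encodes endothelin-converting enzyme-like 1, also called damage-induced neuronal endopeptidase, a membrane protein of the neprilysin family of zinc peptidases that was found through its induction by nerve injury in rats. AP-1 factors such as Jun and Atf3 are known to drive many genes of injured neurons from short DNA sites, and open chromatin marks the stretches where such factors can reach the DNA.

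The 250 bases before each RefSeq transcription start are shown because they differ both in their short motifs and in their chromatin. Both genes lie on the minus strand and both stretches are written 5′ to 3′ in transcript direction (build GRCm38.p6, the assembly that mm10 stands for). The Sprr1a stretch is chr3:92485882-92486131 and the Ecel1 stretch chr1:87156357-87156606. The gene annotation used below for peak distances starts Sprr1a at chr3:92485895 and Ecel1 at chr1:87156521, both inside these stretches. By that annotation the last part of each stretch lies within the gene, a short part for Sprr1a and most of the stretch for Ecel1. Capitals mark matches to the AP-1 motif TGANTCA and the TATA box TATAAA.
Sprr1a: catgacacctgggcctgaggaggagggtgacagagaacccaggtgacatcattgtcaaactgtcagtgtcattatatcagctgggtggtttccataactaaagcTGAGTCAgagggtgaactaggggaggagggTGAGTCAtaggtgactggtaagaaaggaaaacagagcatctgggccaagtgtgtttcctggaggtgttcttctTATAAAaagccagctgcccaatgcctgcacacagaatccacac
Ecel1: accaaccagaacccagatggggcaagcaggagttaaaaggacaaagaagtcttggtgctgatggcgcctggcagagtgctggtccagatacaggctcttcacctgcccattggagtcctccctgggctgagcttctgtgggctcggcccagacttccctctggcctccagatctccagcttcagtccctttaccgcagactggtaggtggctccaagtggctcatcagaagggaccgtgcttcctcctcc
The Sprr1a stretch held the AP-1 motif at 2 places, at 146 to 140 and at 116 to 110 bases before the start, and a TATA box at 43 to 38 bases before it. Matches were sought on both strands in RefSeq windows that run on 50 bases past the start. Of 32544 distinct windows of 300 bases, 7.79% held the AP-1 motif at least once and 0.464% held it 2 or more times, while 13.6% held a TATA box. The Sprr1a window also held CACCC, a box of the SP and KLF factors, at 4 places, of which one overlapped the nearer AP-1 match by 2 bases. That box occurred in 57.7% of all windows. The Ecel1 window matched none of the 10 motifs searched, the others being TGACGTCA, TGATGCAA, TTGCGCAA, TTGCACAA, TTCNNNGAA, GGGCGG and AACAAT, which were also absent from the Sprr1a window. A match is a description of letters and not a binding site.

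In the RNA libraries, Sprr1a was almost silent in 2 of the 3 libraries without crush and climbed steeply over the following days. On day 0, replicates 1, 2 and 3 held 1, 5 and 105 Sprr1a reads, which is 0.0541, 0.216 and 4.08 CPM (read counts scaled to library size with TMM factors). On day 1 the 3 libraries held 148, 126 and 95 reads, or 7.59, 5.57 and 4.39 CPM. Day 2 gave 188 and 160 CPM, day 3 gave 617, 668 and 699.6 CPM, and day 4 gave 424 and 394 CPM. The libraries of days 2, 3 and 4 stood far above every library of days 0 and 1, and the lowest day 1 library was close to the highest day 0 library. By mean level the days ran, from low to high, 0, 1, 2, 4 and 3, with means of 1.45 ± 2.28, 5.85 ± 1.61, 174 ± 20.2, 409 ± 21.2 and 662 ± 41.6 CPM (SD, n = 3, 3, 2, 2 and 3).

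Ecel1 started from a low level that varied little between the day 0 libraries. On day 0 it had 2.38, 2.50 and 1.56 CPM, from 44, 58 and 40 reads, and on day 1 it had 1.38, 3.27 and 4.67 CPM, from 27, 74 and 101 reads. Those groups overlapped. Day 2 gave 35.7 and 52.0 CPM, day 3 gave 314, 398 and 407.5 CPM, and day 4 gave 564 and 532 CPM. Each of these days lay wholly above the day before it. The day means were 2.15 ± 0.52, 3.11 ± 1.65, 43.8 ± 11.5, 373 ± 51.2 and 548 ± 22.2 CPM for days 0, 1, 2, 3 and 4 (SD, n = 3, 3, 2, 3 and 2).

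**Figure D1:**
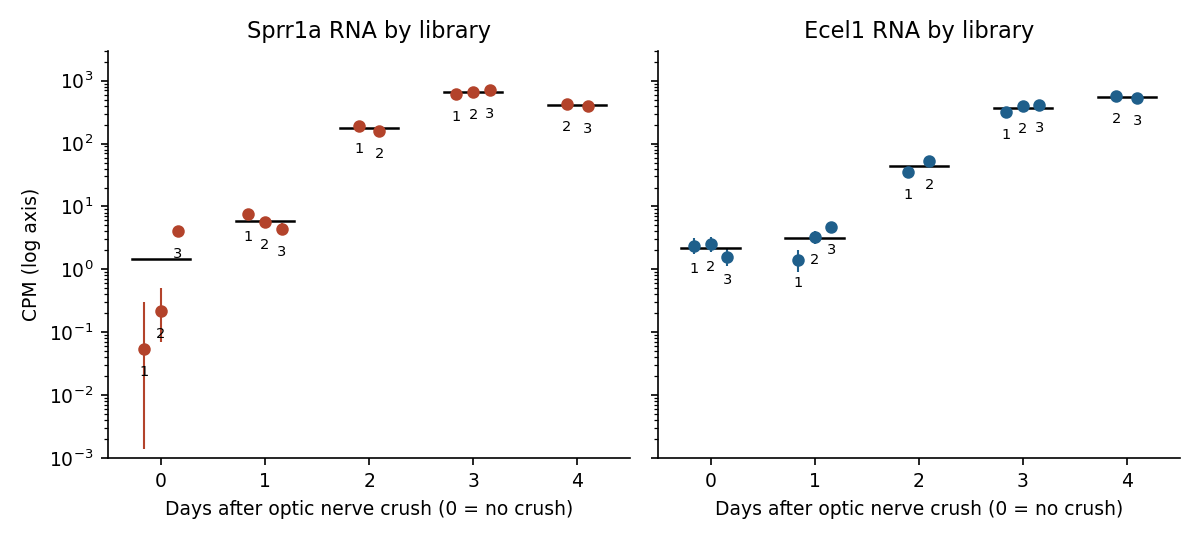
RNA level of Sprr1a (left) and Ecel1 (right) in CPM on a log axis, by day after crush; points are libraries numbered by replicate, vertical lines are exact 95% Poisson intervals of the read count (counting error only) and black bars are day means. On day 0 the Sprr1a points spread from 0.0541 to 4.08 CPM, while the Ecel1 points lie between 1.56 and 2.50 CPM.

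Tested against day 0 over 13737 genes with edgeR's quasi-likelihood test, both genes passed on days 2, 3 and 4, and Sprr1a also on day 1. Share of genes called, for comparison, was 11.4% on day 1, 29.3% on day 2, 40.5% on day 3 and 38.9% on day 4. Of all genes tested, 5.93%, 14.8%, 20.4% and 19.8% were called higher on days 1, 2, 3 and 4, and 5.45%, 14.5%, 20.1% and 19% lower. On day 1 Sprr1a was 3.65-fold higher (log2 1.87 ± 0.55 SE, edgeR adjusted p = 0.0383) and higher in 3 of 3 libraries than in any day 0 library. Ecel1 on day 1 had a fitted fold of 1.48 (log2 0.57 ± 0.32, edgeR adjusted p = 0.282), which did not pass. On day 2 Sprr1a was 109-fold higher (log2 6.77 ± 0.53, adjusted p = 7.80e-08 with edgeR) and Ecel1 20.6-fold (log2 4.36 ± 0.28, adjusted p = 9.22e-09). By day 3 Sprr1a ranked 4th of all tested genes by fitted log2 change and Ecel1 9th, with log2 values of 8.70 ± 0.55 and 7.45 ± 0.29. Without day 0 replicate 3 they ranked 2nd and 21st. On day 4 the fitted values of the pair were close, at 8.00 ± 0.55 for Sprr1a and 8.01 ± 0.30 for Ecel1.

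Between days 1 and 2, where 13% of genes were called, Sprr1a had the largest fitted rise of all genes tested, 29.9-fold (log2 4.90 ± 0.47, edgeR adjusted p = 3.61e-06), and Ecel1 ranked 5th at 13.9-fold. Day 3 against day 2, with 16.9% of genes called, gave a further 3.80-fold rise of Sprr1a (edgeR adjusted p = 0.00566) and an 8.51-fold rise of Ecel1 (adjusted p = 2.08e-06). The Sprr1a step missed the threshold without day 2 replicate 1 (edgeR adjusted p = 0.0507) or replicate 2 (0.0757). Day 4 against day 3, with 1.74% of genes called, passed for neither gene: Sprr1a had log2 -0.69 ± 0.41 (edgeR adjusted p = 0.460) and Ecel1 0.55 ± 0.22 (adjusted p = 0.249). With 1 library left out, the Sprr1a change ran from -0.75 to -0.64 and at least 1 of those fits put it past the threshold. The Ecel1 change ran from 0.44 to 0.62 and passed in none of them. When the fit held the libraries of days 3 and 4 alone, Sprr1a fell on day 4 (log2 -0.68 ± 0.08, edgeR adjusted p = 1.34e-06) and Ecel1 rose (log2 0.56 ± 0.09, adjusted p = 0.000151). The difference between the courses of the genes was not tested.

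The size of the Sprr1a rise rests on 1 library. Without day 0 replicate 3 the fitted folds of Sprr1a were 38.5 on day 1, 1147 on day 2, 4387 on day 3 and 2719 on day 4. Set against the 6 reads of day 0 replicates 1 and 2 together, the day 3 libraries had a 4592-fold higher rate of Sprr1a reads (exact 95% interval 2109 to 12510, counting error only). Ecel1 moved little, to 1.27, 17.6, 151 and 222-fold on days 1, 2, 3 and 4. The day 1 call of Sprr1a was fragile: of 13 fits that each left out a library, 11 gave an adjusted p over the threshold, up to 0.124 with edgeR, and the fit without day 0 replicate 3 gave 8.27e-08.

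**Figure D2:**
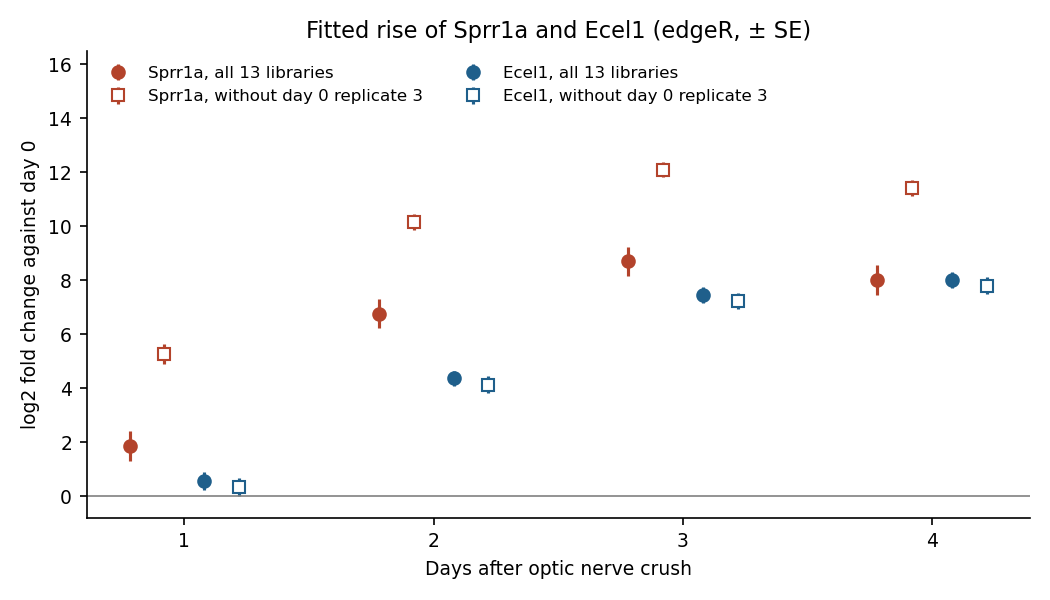
Fitted log2 fold change of Sprr1a and Ecel1 against day 0 on days 1, 2, 3 and 4 after crush (edgeR, bars are ± SE); filled circles use all 13 libraries and open squares leave out day 0 replicate 3. The Sprr1a squares lie 3.39 to 3.41 log2 units above the circles, while the Ecel1 squares lie within 0.23 units of the circles.

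Day 0 replicate 3 held other transcripts that its companions lacked. Its Sprr1a level was 0.617% of the day 3 mean and 0.698 of the day 1 mean. The injury genes Atf3, Hrk and Creb5, which are strongly induced by axon injury, stood there at 0.0764, 0.0398 and 0.0312 of their day 1 means, and Tnfrsf12a, Sox11, Jun and Ecel1 at 0.177, 0.145, 0.264 and 0.500. Of these, 4 were above both companion libraries: Creb5 (1.09 CPM in replicate 3, 0.217 and 0 CPM in replicates 1 and 2), Tnfrsf12a (2.84, 0.650 and 0.648 CPM), Jun (125, 58.0 and 81.6 CPM) and Sox11 (45.5, 38.5 and 41.9 CPM). Ecel1 and Hrk were below both, and Atf3 lay between them. In all, 76 genes at 2 CPM or more in that library were at least 5 times as high as in both other day 0 libraries. They were chosen for a high value in 1 day 0 library, which raises the day 0 mean, so the share called lower on day 3 follows in part from the choice. It was 46 of 76, against 20.1% of all genes, and 2 were called higher, Sprr1a and Mmp12, which encodes a macrophage metalloelastase. In the fit without that library, 8 of the 76 were lower and 8 higher. All 6 interferon response markers (Ifit1, Ifit3, Isg15, Ifi44, Oasl2, Gbp3) were among the 76. Their summed level was 1393 CPM in day 0 replicate 3 against 43.1 and 65.1 CPM in replicates 1 and 2, 650.3 to 1722 CPM on day 1, 395 to 1477 CPM on day 2, 18.1 to 20.5 CPM on day 3 and 209 to 222 CPM on day 4. Their part in the Sprr1a values was not tested.

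All 8 RGC markers were measured, with sums of 5471 to 5631 CPM on day 3 against 7939 to 8489 CPM on day 0. On day 3, 7 of the 8 were lower and 1 higher, against 20.1% and 20.4% of all genes. The higher one was Slc17a6, with a mean of 1678 CPM on day 3 and 1291 CPM on day 0. Of 11 markers of surface or corneal epithelium, the tissue best known for Sprr1a, 3 were in the table, and their summed level was 3.34 to 8.97 CPM on day 3, when Sprr1a was at its highest, against 4.86 to 14.25 CPM on day 0. Krt5, Krt14, Krt15, Krt6a, Trp63, Epcam, Ivl and Krt8 were not among the genes listed. The 6 microglia and macrophage markers, all measured, summed to 31.7 to 52.7 CPM on day 0, 47.7 to 244 CPM on day 1, 138.8 and 149 CPM on day 2, 137 to 139 CPM on day 3 and 158 to 214.5 CPM on day 4, and their part in the 2 genes' values was not tested. On day 3, 1 of the 6 was higher (Cd68, 18.6-fold, edgeR adjusted p = 7.59e-06) and 1 lower (Ptprc, log2 -1.42, adjusted p = 0.0443). Cd68 averaged 117.9 CPM on day 3 and made up most of that day's sum, while the median log2 change of the 6 was -0.61. Against day 2, 4 of the 6 were lower on day 3 and 0 higher, when 1306 of 13737 genes were lower. Markers of other retinal neurons were present too. The 5 rod and cone markers summed to 206 to 940.1 CPM on day 0, 701 to 917 CPM on day 1, 231 and 298 CPM on day 2, 579 to 688 CPM on day 3 and 271.5 and 581 CPM on day 4, and 4 of 5 amacrine and horizontal cell markers to 210.4 to 300.4 CPM on day 3 against 60.5 to 261 CPM on day 0. None of the rod and cone markers and 1 of the 4 amacrine and horizontal cell markers was called on day 3. The part of these cells in the values of Sprr1a and Ecel1 was not tested. In bulk libraries, fewer cells of a type and less RNA per cell cannot be told apart. RNA libraries held 19024286 to 27561352 counted reads.

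Most of the epidermal genes that Sprr1a belongs with in skin were not in the table or did not rise. Of 33 genes of epidermal differentiation and the cornified envelope, 11 were in the table, and Sprr1a was the only Sprr gene among them. Leaving Sprr1a out, 10 were tested on day 3, of which 1 was higher and 5 lower, against 20.4% and 20.1% of all genes, with a median log2 change of -0.66 against 0.03 over all genes. S100a10, an annexin partner, was 1.81-fold higher (125.8 ± 12.4 CPM on day 3 against 69.4 ± 2.52 CPM on day 0, SD, n = 3 each; edgeR adjusted p = 1.89e-05). Without day 0 replicate 3 the numbers were 1 and 4, and without day 0 replicate 1 they were 1 and 3. The 4 largest falls were of weakly expressed genes. The transglutaminase gene Tgm2 averaged 0.297 CPM on day 3 against 2.08 CPM on day 0 (log2 -2.80), its relative Tgm5 0.439 against 2.18 CPM (-2.29), Lor, which encodes the envelope protein loricrin, 0.782 against 3.64 CPM (-2.21), and the keratin gene Krt1 1.66 against 4.26 CPM (-1.36). The fall of Tgm2 rests on day 0 replicate 3, with 4.98 CPM there and 0.758 and 0.518 CPM in replicates 1 and 2, and without it the log2 change was -1.09 and did not pass (edgeR adjusted p = 0.293). That of Tgm5 rests on day 0 replicate 1, with 4.60 CPM there and 1.17 and 0.778 CPM in replicates 2 and 3, and without that library it was -1.16 (edgeR adjusted p = 0.210). Without day 0 replicate 3, Tgm5, Lor, Krt1 and S100a10 had log2 changes of -2.70, -2.34, -1.63 and 0.85 and passed, while without replicate 1 Krt1 did not (-1.35, edgeR adjusted p = 0.0560). On day 1 none of the 10 passed, or 1, Tgm2, without day 0 replicate 3. Sprr genes resemble one another, and how reads that match several of them were counted is not given in the sources used here.

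Of the 6 measured members of its peptidase family, Ecel1 alone passed as higher on day 3. The family has 7 members on the list used here, of which Mme, Mmel1, Ece1, Ece2, Ecel1 and Phex were in the table and Kel was not listed. Mme, which encodes neprilysin itself, moved the other way. It had 22.4, 38.9 and 35.5 CPM on day 0, 36.8, 27.6 and 20.5 CPM on day 1, 16.5 and 13.1 CPM on day 2, 0.503, 1.79 and 2.38 CPM on day 3, and 1.68 and 0.332 CPM on day 4. Each library of days 2, 3 and 4 lay below each library of day 0. The fitted log2 change of Mme was -4.37 ± 0.46 on day 3 (edgeR adjusted p = 8.07e-07) and -4.94 ± 0.57 on day 4, and its day 2 value of -1.12 did not pass (adjusted p = 0.0670). Ece2, an endothelin-converting enzyme of neurons, fell to 25.1 ± 3.53 CPM on day 3 against 58.1 ± 4.35 CPM on day 0 (SD, n = 3 each; log2 -1.21, edgeR adjusted p = 4.43e-07). Ece1, its widely expressed relative, averaged 120.8 ± 14.1 CPM on day 3 and 124.7 ± 12.3 CPM on day 0 and did not pass on any day. Mmel1 held 1 and 0 reads on day 4 against 10, 41 and 29 on day 0 (edgeR adjusted p = 0.00273), and Phex stayed below 1 CPM on all days. So 1 of 6 tested members was higher and 2 lower on day 3, and 3 were lower on day 4. Of all genes, 20.4% were higher and 20.1% lower on day 3, and 19% were lower on day 4. The day 3 counts are near those shares and are no result about the family.

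**Figure D3:**
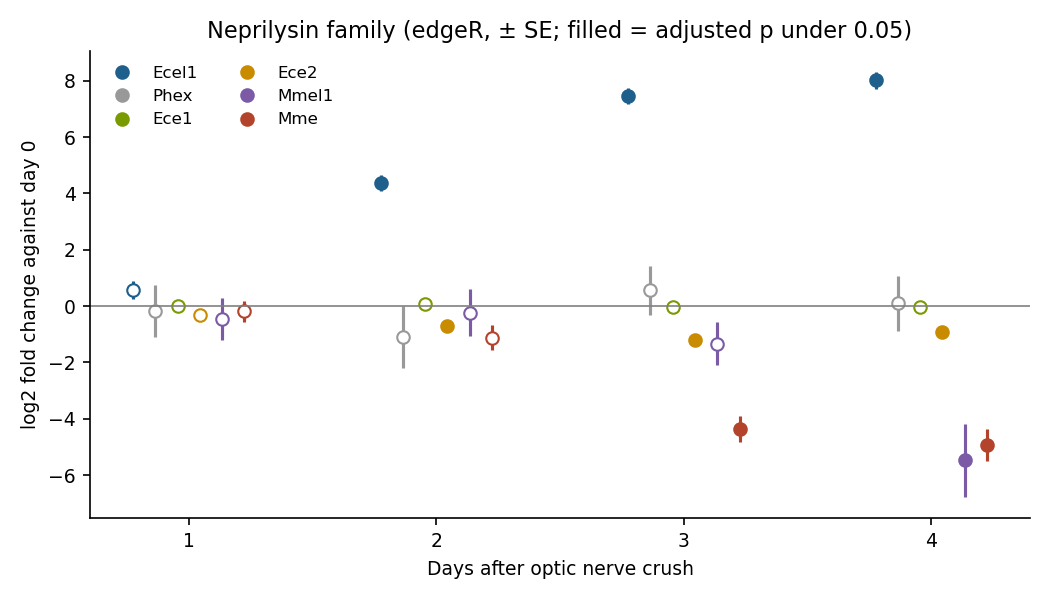
Fitted log2 fold change against day 0 on days 1, 2, 3 and 4 for the 6 measured members of the neprilysin family (edgeR, bars are ± SE; filled symbols have an adjusted p under 0.05). Ecel1 reaches 8.01 on day 4 while Mme lies at -4.94 and Ece1 stays near 0.

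Several factors reported to act on either promoter, or upstream of those factors, rose as early as day 1. Of 26 such genes, 22 were tested, with 7 higher on day 1 (5.93% of all genes were), 12 on day 2 (14.8%), 10 on day 3 (20.4%) and 13 on day 4 (19.8%), and 1 lower, on day 3. Atf3, an AP-1 and CREB family factor, was already 14.3-fold higher on day 1 (49.4 ± 5.22 CPM on day 1 against 3.48 ± 1.13 CPM on day 0, SD, n = 3 each) and 141-fold on day 3. Jun, its AP-1 partner, was higher by 5.37-fold on day 1 and by 4.86-fold on day 3. The developmental factor Sox11 was higher by 7.49-fold on day 1 and by 21.6-fold on day 3. Fosl2 (1.68-fold on day 1, 3.94-fold on day 3) and Jund (1.65-fold and 1.72-fold) rose as well, whereas Fos fell on day 3 (log2 -1.09, edgeR adjusted p = 0.00182). Stat3, the factor downstream of ciliary neurotrophic factor and related cytokines, rose 2.46-fold on day 1 and 1.82-fold on day 3, with its inhibitor Socs3 3.06-fold higher on day 1. The receptor genes Cntfr (2.70-fold), Lifr (1.79-fold) and Il6st (1.72-fold) passed on day 3. Fosl1, Batf, Lif and Il6 were not listed.

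Other regeneration-associated genes gave the setting for the pair. Of 36 tested, 19 were higher on day 1 and 25 on day 3, with 0 and 2 lower, when 5.93% and 20.4% of all genes were higher, and a median log2 change of 0.99 and 1.51 against 0.01 and 0.03 over all genes. The largest fitted rises among them on day 3 were those of Mmp12 (241-fold) and Atf3 (141-fold), then Hrk, which encodes an activator of apoptosis (77.7-fold), and Creb5, a CREB family factor (61.1-fold). Without day 0 replicate 3 that order changed, with Mmp12 at 803-fold, Creb5 at 279-fold, Atf3 at 148-fold and Hrk at 69.0-fold, and the Creb5 value then rests on 4 and 0 reads on day 0. Sox4 (log2 -1.84) and the tubulin gene Tubb2b (-0.74) fell, with -1.61 and -0.82 without that library. The lists were drawn up with earlier results of these libraries known, so the counts describe and do not support one another.

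Genes whose log2 CPM ran most like Sprr1a over the 13 libraries, among 10350 candidates, were Mknk1, Mast4, Tpm4, Bbs9, Mdm2, Sgms2, Sdc2 and Cnppd1, with Pearson r of 0.978 to 0.985. All share the libraries and their depth. Their rises on day 3 were smaller, 1.83-fold (Mdm2) to 5.10-fold (Cnppd1). Without day 0 replicate 3, 2 of these 8 stayed in the list (Mknk1 and Tpm4), and Stk40, Shmt2 and Cdkn1a led it, of which Cdkn1a, a cell cycle inhibitor gene, rose 37.8-fold on day 3. For Ecel1 the list was Riok3, Gtf2a1, Tes, Cyp4f16, Polr2a, Rcc2, Micall1 and Dach2 (r 0.984 to 0.993), of which 7 stayed. Dach2 rose 17.9-fold and Tes 11.5-fold on day 3. Sprr1a and Ecel1 correlated with each other at r = 0.901.

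Among neighbours on the chromosome, 3 of 10 were called higher on day 3 for either gene, which is near the 20.4% of all genes and no result about the neighbours. Sprr1a lies at chr3:92483952-92485895 (mm10), and of 10 measured neighbours, 3 were called higher on day 3, namely S100a10, Them4 (1.30-fold) and Tchh (3.69-fold, at a mean of 1.19 CPM over all libraries), and Lor was lower. The nearest of them, Lor, was 401 kb away. Ecel1 lies at chr1:87147655-87156521, and of its 10 neighbours 3 were higher on day 3, namely Eif4e2 (1.87-fold), Cops7b (1.46-fold) and Pde6d (1.44-fold). Eif4e2, an inhibitor of cap-dependent translation, starts 57.4 kb from Ecel1.

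Chromatin at the Sprr1a start gave 1 peak call in 15 libraries. No consensus peak carried Sprr1a as its gene, and the peak nearest to its annotated start, chr3:92510834-92511066, lay 24.9 kb upstream and was annotated to Sprr4, another small proline-rich protein gene. That peak had a log2 change of 0.11 ± 0.17 on day 3 against day 0 and did not pass (edgeR adjusted p = 0.703). Among peak calls of the 15 single libraries, 1 lay within 5 kb of the Sprr1a start. It was made in day 3 replicate 5, at chr3:92485929-92486034, 153 to 48 bases before the RefSeq start. That stretch of 106 bases held both capitalised AP-1 matches of the sequence above and ended short of the TATA box. It was a weak call, with a fold enrichment of 2.49 and a -log10 p of 4.47 by the authors' peak caller, which put it at the 14.4th percentile of fold among the calls of its library. The other 5 libraries of day 3, the 3 of day 1 and the 6 of day 0 had none.

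Most other genes had open chromatin at their start. Of the 13737 tested genes, 93.7% had a consensus peak within 1 kb of their annotated start, and 1.06% had none within 20 kb. Among the 82 genes called at least 16-fold higher on day 3, a boundary chosen after the values were seen, 84.2% had a peak within 1 kb. Sprr1a was one of 5 of the 82 with none within 20 kb, the others being Mmp10, Xirp2, Tmc1 and Taf7l. Sprr1a had 0 entries in the authors' tables that correlate ATAC peaks with RNA, and no footprint of ATF3, ATF4, CEBPG or DDIT3 in the authors' lists lay within 5 kb of its start.

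The Ecel1 start, in contrast, lay in open chromatin before the crush. Its promoter peak, chr1:87153786-87156816 (3031 bases, 63.5% GC), covers the whole Ecel1 stretch printed above. Single libraries had a call over the 300-base promoter window itself in 6 of 6 on day 0, 3 of 3 on day 1 and 5 of 6 on day 3, by an overlap of at least 1 base, and in 5, 1 and 4 with at least 50% of the window covered. Over the whole peak the numbers were 6, 3 and 6, or 6, 1 and 4 at 50%. The authors' covariate table gives a batch for each ATAC library: batch 1 holds day 3 and day 0 replicates 4 to 6, and batch 2 holds the other libraries and all of day 1. In batch 1 the promoter peak had 12.4, 13.7 and 13.8 CPM on day 3 against 11.3, 12.0 and 14.1 CPM on day 0, and these ranges overlapped. In batch 2 it had 8.03, 8.81 and 8.35 CPM on day 0, 9.57, 8.19 and 11.9 CPM on day 1, and 9.97, 10.5 and 11.8 CPM on day 3, with days 3 and 0 apart. In the fit with batch as a term the peak had a log2 change of 0.17 ± 0.15 on day 1 and 0.22 ± 0.11 on day 3, and neither passed (edgeR adjusted p = 0.476 and 0.151). Day 3 against day 1 gave 0.06 ± 0.15 (adjusted p = 0.837).

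Across the peaks annotated to Ecel1, 0 of 6 were called on day 1 against day 0, when 7.84% of all peaks were, 0 of 6 on day 3 against day 0 (23.8% of all peaks), and 0 of 6 on day 3 against day 1 (1.18%). Their log2 changes on day 3 ran from -0.14 to 0.22, around a median of 0.16 against 0.03 over all peaks. They comprise the promoter peak, 3 peaks within the gene at 2.94 to 6.10 kb downstream of the start, and 2 intergenic peaks 7.58 and 12.2 kb upstream. The peaks 2.94 and 6.10 kb downstream also carry a promoter annotation for Ecel1. DESeq2 also called 0 of the 6 in each comparison, and the unadjusted edgeR p of the 6 on day 3 was lowest for the promoter peak, at 0.0529. In batch 2 alone, 1 of the 6 passed on day 3, the peak 7.58 kb upstream (log2 0.49, edgeR adjusted p = 0.0447), whose value in batch 1 alone was -0.24. Depth in peaks ran from 20006724 to 72579102 counts per library, and the deposited share of reads in peaks was 0.173 to 0.456 on day 3, 0.157 to 0.186 on day 1 and 0.322 to 0.496 on day 0. Its part in the results was not tested beyond a fit with it as a term.

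**Figure D4:**
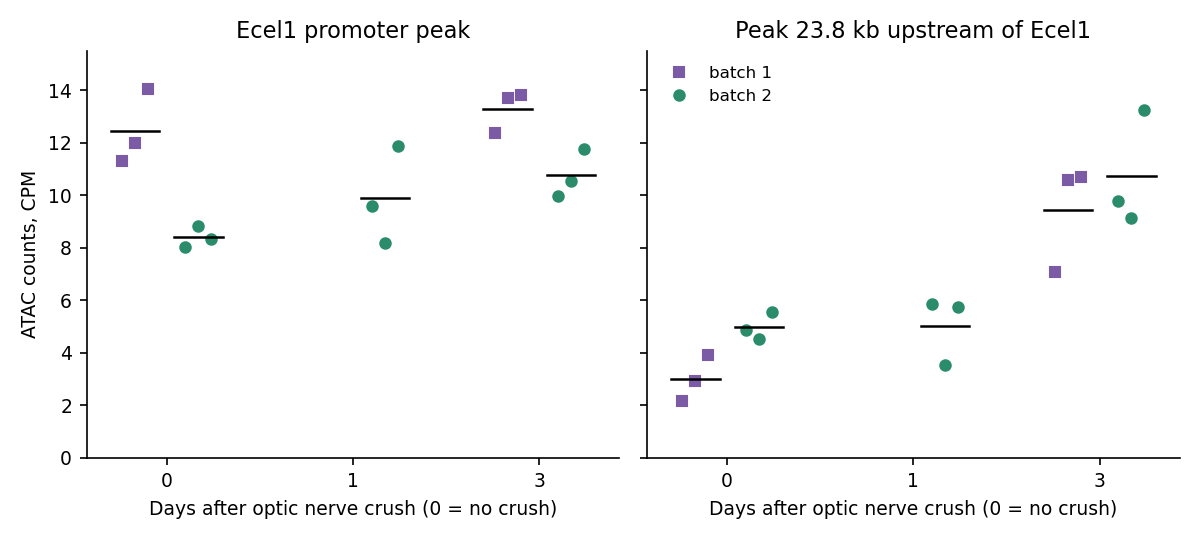
ATAC counts (CPM) on days 0, 1 and 3 in the promoter peak of Ecel1 (left) and in the peak 23.8 kb upstream of it (right); squares are libraries of batch 1, circles of batch 2, and black bars are means per batch. The promoter peak lies between 8.03 and 14.1 CPM throughout, while the upstream peak lies at 7.08 to 13.25 CPM on day 3 and at 2.17 to 5.54 CPM on day 0.

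Farther upstream, 1 peak was more open on day 3 in both batches. It lies at chr1:87180330-87181812, 23.8 kb upstream of the Ecel1 start, and is annotated to Prss56, a serine protease gene that is not among the measured genes. The authors' deposited table of distal pairs links this peak with Ecel1 RNA at r = 0.785 (p = 0.0320). That link comes from the same series and may not be independent of the day 3 rises given here. In batch 1 it had 7.08, 10.6 and 10.7 CPM on day 3 against 2.17, 2.91 and 3.93 CPM on day 0. In batch 2 it had 4.88, 4.53 and 5.54 CPM on day 0, 5.85, 3.52 and 5.74 CPM on day 1, and 9.79, 9.12 and 13.25 CPM on day 3. All 6 libraries of day 3 stood above all 9 of days 0 and 1. The rise was 2.58-fold on day 3 against day 0 (log2 1.37 ± 0.17, edgeR adjusted p = 4.62e-06), with log2 1.66 in batch 1 alone and 1.03 in batch 2 alone. Day 1 against day 0 gave log2 0.14 ± 0.22 (adjusted p = 0.713), and day 3 against day 1 gave 1.23 ± 0.23 (edgeR adjusted p = 0.0179). That last call was lost without day 1 replicate 1 (edgeR adjusted p = 0.0819) or replicate 2 (0.267) and with day as the only term (0.228). Single libraries called a peak there in 6 of 6 on day 3, 2 of 3 on day 1 and 5 of 6 on day 0.

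That peak was one of 18 distal peaks that the authors' deposited table pairs with Ecel1, with r of 0.0671 to 0.924, of which 10 had p under 0.05. Among them are the pair of intergenic peaks annotated to Ecel1, and others are annotated as promoter peaks of Prss56, Eif4e2, Efhd1 or Gigyf2. On day 3 against day 0, 10 of the 18 were higher and 0 lower, when 23.8% of all peaks were called in either direction. The median log2 change of the 18 was 0.38 against 0.03 over all peaks. On day 1 against day 0, 0 passed (7.84% of all peaks did), and on day 3 against day 1, 1 did (1.18% of all peaks). Each pair carries a correlation with Ecel1 RNA, low or high, and how the authors chose the pairs is not given here. The count of peaks that rose is a description. In the authors' deposited ATAC comparison of day 3 with day 0, the peaks 106.9 and 168.1 kb upstream did not pass (authors' adjusted p = 0.0522 and 0.111), while the others of the 10 did. In batch 1 alone, where 7162 of all peaks passed, 1 of the 18 did, namely the peak 23.8 kb upstream. The peaks at chr1:87270293-87271279 and chr1:87273304-87274372, 113.8 and 116.8 kb upstream, differed between batches in their day 3 change by 1.52 and 1.03 log2 units (batch 2 minus batch 1, edgeR adjusted p = 0.00350 and 0.0447 for the interaction). Their log2 changes were 1.57 and 1.32 in batch 2 and 0.02 and 0.27 in batch 1. One further peak within 50 kb of Ecel1, chosen after its values were seen, passed in both batches. It lies 12.5 kb downstream of the start, at chr1:87141885-87144010, and rose 1.60-fold on day 3 (log2 0.68 ± 0.11, edgeR adjusted p = 0.000109; 0.58 in batch 1 and 0.69 in batch 2). It had already passed on day 1 (log2 0.62 ± 0.15, edgeR adjusted p = 0.0202).

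**Figure D5:**
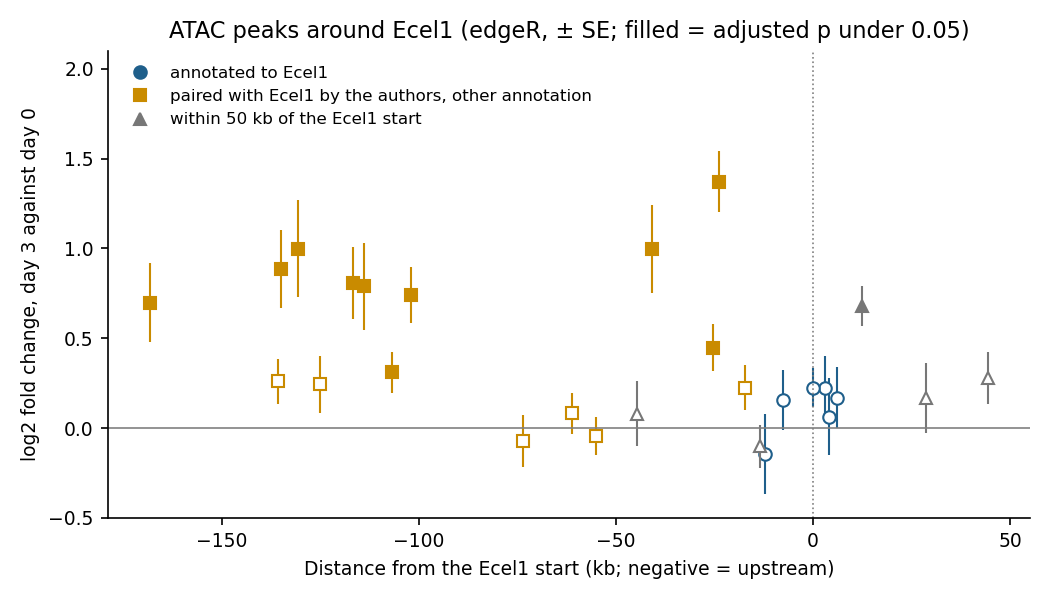
Log2 fold change on day 3 against day 0 of ATAC peaks around Ecel1 (edgeR, bars are ± SE; filled symbols have an adjusted p under 0.05), by distance from the Ecel1 start in kb (negative is upstream); circles are peaks annotated to Ecel1, squares other peaks paired with it by the authors and triangles other peaks within 50 kb. The 6 peaks annotated to Ecel1 lie between -0.14 and 0.22, and the highest point, 1.37, is the peak 23.8 kb upstream.

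Footprints, stretches protected from the transposase at a factor's motif, were deposited by the authors for ATF3, ATF4, CEBPG and DDIT3 with the libraries of a day pooled. None of the 6 peaks annotated to Ecel1 held a site of these factors, and the 18 paired peaks held 4 ATF3, 1 ATF4, 2 CEBPG and 3 DDIT3 sites. The peak 23.8 kb upstream was the one among them with sites of all 4 factors. Its ATF3 site at chr1:87181081-87181089 had footprint scores of 0.202, 0.251 and 0.403 on days 0, 1 and 3. Its ATF4, CEBPG and DDIT3 sites overlap one another at chr1:87181143-87181157 and share the scores 0.149, 0.214 and 0.239. The authors' table marks each of these 4 sites as bound on all 3 days. A further ATF3 site, at chr1:87176210-87176218 in another paired peak, had scores of 0.0674, 0.121 and 0.157 and was marked as bound on day 3 and not on days 0 and 1. The DDIT3 site of that same peak, at chr1:87173977-87173986, had 0.133, 0.165 and 0.137 and was marked as bound on day 1 alone. The ATF3, CEBPG and DDIT3 sites in the peak 113.8 kb upstream share the scores 0.0581, 0.159 and 0.125 and were likewise marked as bound on day 1 alone. The fourth ATF3 site, at chr1:87211663-87211673, had 0.0913, 0.203 and 0.222 and was marked as bound on days 1 and 3. A peak 13.5 kb upstream, neither annotated to Ecel1 nor paired with it, held overlapping ATF3, CEBPG and DDIT3 sites at chr1:87170467-87170479. They share the scores 0.157, 0.164 and 0.167 and were marked as bound on all 3 days. A further ATF3 site there, at chr1:87170487-87170498, was marked as bound on days 1 and 3. That peak did not pass on day 3 against day 0 (log2 -0.10 ± 0.12, edgeR adjusted p = 0.599). The scores are the authors' pooled values and carry no replicate error.

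The authors' deposited comparison table, whose groups are named NT, gave smaller RNA changes on day 3 for both genes than the fit used here. Its log2 values for Sprr1a were 1.95 on day 1 (FDR 0.272) and 6.82 on day 3 (FDR 7.50e-07), and for Ecel1 0.50 (FDR 0.644) and 4.29 (FDR 1.03e-14). The same directions and the same days past the threshold were found here, except that the day 1 call of Sprr1a was not made in the authors' deposited table. For promoter chromatin of Ecel1, the authors' deposited correlation with RNA was 0.543 (p = 0.101). It was taken by gene name and was not matched to one of the peaks here.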

How the data were processed

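The deposited RNA table holds whole-number counts per gene and the deposited ATAC table counts per consensus peak, and both were tested as counts. Per the submitters' processing notes, RNA used STAR, Picard, HTSeq and edgeR with mm10, and ATAC used Bowtie2, MACS2, ChIPseeker, featureCounts and DESeq2, among others, with GRCm38 and mm10. Tool versions are unknown here. The SMART-Seq v4 kit keeps no strand, and reads of genes that overlap in opposite directions are not separable. Of 15 labelled RNA samples, 13 had a column; those not analysed here were replicate 3 of day 2 and replicate 1 of day 4. The description label of the ATAC samples names another sample's peak file, whereas title, treatment and the number of calls fit, and titles were used.

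Fold changes in the authors' comparison tables are log2 values with the authors' p-value. The share of a library's reads within peaks is a deposited fraction, and footprints, correlations and sequencing components are a deposited score. The deposited MACS2 calls give a ratio (fold enrichment) and a -log10 p for each peak. The authors' correlation tables also hold 36 columns of single samples that were not used.

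Tests were edgeR 4.0.16 in R 4.3.3 (DESeq2 1.42.0 as an alternative): quasi-likelihood F test, two-sided, TMM, filterByExpr, all libraries of an assay in 1 fit, with day as the term for RNA and day and batch for ATAC, and Benjamini-Hochberg over all genes or peaks at a threshold of 0.05. SE was obtained as log2 change over root F. Correlations used log2 CPM with 2 as prior count. Scripts were tested on simulated data. Members, lists and peaks were chosen with earlier results of these data known. Named genes were the members, the 8 genes most like each, list members, up to 5 neighbours on either side, and annotated or paired peaks. Depth, intervals and floors cover counting error only. Alternatives were other scalings, filters and fits, replicate number as a term, single batches and leaving out each library; the sequencing components as terms, the batch by day interaction and list values without day 0 replicate 1 or 3 were added after seeing the data. Motifs were searched in RefSeq promoter windows, where both genes matched; proteins were not analysed here.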

Additional observations from a re-analysis of the deposited data

Results flagged for a closer look

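One of 46 groups of 6 ATAC libraries (23 peaks on days 0 and 3) held a library far from the others. In the peak at chr1:87153090-87153578, 2.94 kb downstream of the Ecel1 start, day 0 replicate 6 had 1.57 CPM while the other 5 libraries of day 0 had 0.847 to 1.11 CPM. Chance gives such a gap in about 1 of 20 groups. That peak was not called in any comparison.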

How the results depend on the processing

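The rises of Sprr1a and Ecel1 on days 2, 3 and 4 against day 0 kept their direction and stayed past the threshold in every fit that gave an adjusted p (DESeq2 gave none for Sprr1a). Leaving out 1 library moved the log2 change of Sprr1a to between 6.21 and 10.2 on day 2, 8.15 and 12.1 on day 3 and 7.46 and 11.4 on day 4, and on day 1 to between 1.32 and 5.27. The day 1 change of Sprr1a did not pass with day 0 and day 1 alone in the fit (1.98, edgeR adjusted p = 0.262). Ecel1 on day 1 ran from 0.16 to 0.87 when a library was left out, and passed without day 1 replicate 1 (edgeR adjusted p = 0.0342). Its change on day 4 against day 3 was -0.11 with the first 2 sequencing components as terms. The Ecel1 promoter peak passed in none of the fits run. Its log2 change on day 1 ran from 0.01 to 0.29 without 1 library and was -0.075 with day as the only term, and on day 3 against day 1 it ran from -0.063 to 0.21 and was -0.10 with library size as the only scaling. The peak 23.8 kb upstream had -0.046 on day 1 in batch 2 alone, and kept its day 3 call in all fits, at 1.03 to 1.66. The causes were not tested.

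Of the 18 paired peaks, 10 were called on day 3, but 4 with day as the only term or with the in-peak read share in the fit and 1 in batch 1 alone. Of all genes, edgeR called 1563 on day 1, or 815 with those days alone in the fit. Between days 1 and 2 it called 1779, or 626 with sequencing components, and between days 3 and 4 it called 239, or 656 with those days alone. DESeq2 called 623 there. Of all peaks, edgeR called 36123 on day 3 against day 0, or 14466 with day as the only term, 21294 with the in-peak read share and 7162 in batch 1. On day 1 against day 0 it called 11884 peaks, or 0 with day as the only term, 895 with the in-peak read share, 27188 with library size and 40817 in batch 2, and DESeq2 called 20450. On day 3 against day 1 it called 1789, or 0, 7961, 3951 and 15532 under the same settings, and DESeq2 called 6424. Paired peaks called on day 1 numbered 0, or 1 with DESeq2, 2 with library size and 5 in batch 2. Library size as the only scaling moved the median of all peaks to 0.28 on day 1 and -0.16 on day 3 against day 1.

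Replicate numbers showed no pairing of the RNA samples: deviations of same-numbered libraries correlated at -0.13 to 0.07, with 0 of 22 pairs over 0.1. For ATAC libraries the range was -0.21 to 0.22, with 5 of 12 pairs over 0.1, which does not settle whether the numbers pair them. With the replicate block, Sprr1a had log2 1.95, 6.93, 8.76 and 8.05 on days 1, 2, 3 and 4, Ecel1 0.54, 4.43, 7.46 and 7.87, and the promoter peak 0.22 on day 3, with no call of either gene or the peak changed. The block gave 6212 called peaks on day 1 and 1090 on day 3 against day 1.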
